A study of Mus musculus with 9 samples.

Results

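Casc1, Kcnj10, Dnajc5b and Klf2 are 4 genes whose deposited values were lower than in wild-type coronal suture both in Twist1+/- mice and in Twist1+/- mice that had undergone suture regeneration surgery. They are 4 of the 43644 genes in the deposited table, and all 4 were among the 29107 genes that passed the filter on low values. The 4 were picked from their own values in these libraries, because REG stayed below WT as MUT did, so their differences between the groups are given as a description and carry no test.

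RNA was sequenced from the coronal suture, where frontal and parietal bone meet in the skull vault, of C57BL/6 mice aged 7 months. MUT denotes Twist1+/- mice without surgery, REG denotes Twist1+/- mice operated on at 1 month of age to regenerate the suture, and WT denotes wild-type mice without surgery, with 3 libraries per group. MUT and REG carried the same genotype and differed by the surgery, and no wild-type group with surgery was analysed here. The labels state neither the sex of the mice nor whether a library came from 1 animal or from pooled animals, so p-values measure only the spread between these libraries.

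Twist1 encodes a basic helix-loop-helix transcription factor of cranial mesenchyme, and loss of 1 copy causes early fusion of the coronal suture in mice and in human Saethre-Chotzen syndrome. The 4 genes share no well-known pathway. Klf2 encodes a zinc-finger transcription factor that is induced by blood flow in endothelium through a kinase cascade ending in MEF2 factors, and that also keeps T cells quiescent. Kcnj10 encodes Kir4.1, an inwardly rectifying potassium channel best known for clearing extracellular potassium in astrocytes and other glia. Dnajc5b encodes a cysteine string protein, a J-domain co-chaperone related to the synaptic vesicle protein DNAJC5. Casc1 encodes a protein classed with the axonemal dynein intermediate chains, which belong to the motor of motile cilia.

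The promoters are shown because Twist1 binds E-boxes and Klf2 is itself a reader of GC-rich promoter elements. RefSeq promoter sequence of the GRCm38.p6 build matched 3 of the 4 genes, namely Casc1, Kcnj10 and Klf2, leaving Dnajc5b. Each window runs 5′ to 3′ on the gene's own strand and ends at the base before the annotated start, with bases that lie in an exon left out. Capitals mark the GC box GGGCGG on either strand, the motif read by Sp and KLF factors, and in Klf2 also the match to the MEF2 consensus. The windows are chr6:145211006-145211133 on the minus strand for Casc1, chr1:172340960-172341209 on the plus strand for Kcnj10 and chr8:72318812-72319032 on the plus strand for Klf2.
Casc1: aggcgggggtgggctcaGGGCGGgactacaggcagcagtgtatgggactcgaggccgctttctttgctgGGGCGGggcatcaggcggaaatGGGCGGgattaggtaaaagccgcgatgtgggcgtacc
Kcnj10: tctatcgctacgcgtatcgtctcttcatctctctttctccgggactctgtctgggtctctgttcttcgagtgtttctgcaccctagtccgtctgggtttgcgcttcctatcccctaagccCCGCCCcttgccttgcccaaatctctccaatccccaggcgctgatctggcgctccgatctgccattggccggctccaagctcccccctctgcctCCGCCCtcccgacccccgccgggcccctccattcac
Klf2: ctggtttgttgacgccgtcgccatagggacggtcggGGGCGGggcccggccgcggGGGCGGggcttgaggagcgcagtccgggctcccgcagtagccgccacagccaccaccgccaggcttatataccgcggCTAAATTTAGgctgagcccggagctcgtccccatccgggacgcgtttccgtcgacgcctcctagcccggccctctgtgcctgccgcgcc

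The 128 bases of Casc1 fill the gap between its start and that of Etfrf1 on the other strand, and held 3 GC boxes at a GC content of 64.8%. The 250 bases of Kcnj10 held 2 GC boxes at 62.0% GC. The 221 bases of Klf2 held 2 GC boxes and 1 match to the MEF2 consensus at 71.5% GC. Among 32851 RefSeq promoter windows cut to the same lengths, at least 1 GC box was present in 23.5% at the length of Casc1, 32.7% at that of Kcnj10 and 28.7% at that of Klf2. The MEF2 consensus was present in 2.61% of windows of the length of Klf2. The E-box CANNTG, searched on both strands, had no match in any of the 3 windows, while 43.2%, 66.2% and 62.2% of all windows of those 3 lengths held 1 or more. A match or its absence describes these letters in these windows only.

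Twist1 itself had deposited values of 0.987, 8.08 and 0.548 in MUT and 3.76, 9.19 and 12.2 in REG, against 16.2, 23.3 and 23.1 in WT. All 6 Twist1+/- libraries were below all 3 WT libraries, which follows the labels in direction. Differences were taken on log2(value + 0.367), which understates those of low genes, and a gene was called at a Benjamini-Hochberg adjusted p under 0.05. The log2 difference was -3.26 ± 0.76 for MUT vs WT (SE, limma, adjusted p = 0.0109), 1.85 ± 0.76 for REG vs MUT (adjusted p = 0.0808) and -1.40 ± 0.76 for REG vs WT (adjusted p = 0.567). With the background reads described next subtracted, MUT vs WT for Twist1 was -2.94 (limma adjusted p = 0.0506). Twist1 stood at 1.78, 25.7 and 1.14 times that background in MUT and 99.7, 230 and 401 times in REG, against 297, 537 and 406 times in WT. In MUT replicates 1 and 3 its reads were thus close to background.

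Several properties of the libraries touch every value below. The deposited values are a scaled signal whose 75th percentile was about 2.76 in each library, and 1 read was worth between 0.00932 and 0.0998 of it. The reads per library were estimated at 2945636 to 10894209 for MUT, 18276494 to 39377876 for REG and 16356391 to 20019712 for WT. Background reads, taken as spread evenly along exons and estimated from 1597 olfactory and vomeronasal receptor genes that should be silent in suture, made up 7.25% to 22.6% of reads in MUT, 0.497% to 0.821% in REG and 0.596% to 0.863% in WT. Mitochondrial genes held 2.01% to 4.78% of reads in MUT, 9.70% to 15.5% in REG and 9.96% to 13.5% in WT. MUT replicate 2 had the fewest reads and the least background of the MUT libraries. REG replicate 3 had 18276494 estimated reads, against 39377876 and 30272185 in REG replicates 1 and 2. Its library name, REG2_S8, has the form of the MUT and WT names, whereas 2_REG_2_S2 and 3_REG_3_S3 begin with a number. What the names stand for is not given in the sources used here. Each gene is therefore also given for REG replicate 3 and for REG replicates 1 and 2 apart. In the fit of all 9 libraries, MUT vs WT called 5964 genes higher and 4261 lower (20.5% and 14.6% of those tested), and REG vs MUT called 3432 higher and 7221 lower (11.8% and 24.8%). REG vs WT called no gene with limma in either direction (0.0% higher and 0.0% lower), its smallest adjusted p being 0.35, with 620 genes higher and 2135 lower at an unadjusted p under 0.05. Without REG replicate 3 the same comparison called 413 genes higher and 1203 lower.

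Klf2 had deposited values of 16.1, 18.5 and 11.9 in MUT and 12.7, 16.8 and 20.6 in REG, against 109.9, 62.9 and 58.0 in WT. The 6 Twist1+/- libraries overlapped each other and lay within a narrow range, and the lowest WT library was 2.81 times the highest of them. Means were 15.5 ± 3.32 in MUT and 16.7 ± 3.95 in REG, against 76.9 ± 28.7 in WT (SD, n = 3 each). The log2 difference was -2.25 ± 0.38 for MUT vs WT, -2.14 ± 0.38 for REG vs WT and 0.10 ± 0.38 for REG vs MUT (SE of the fit). With REG replicate 3 alone, REG vs WT was -1.82, and with REG replicates 1 and 2 alone it was -2.30. Klf2 is a short gene of 3 exons at chr8:72319033-72321656 on the plus strand (GRCm38), with 1847 exonic bases, and none of its 31-base stretches occurs in another annotated gene.

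Casc1 had deposited values of 28.4, 13.0 and 16.2 in MUT and 20.03, 3.85 and 23.9 in REG, against 308, 207 and 170 in WT. REG replicate 2 was the lowest library, the other 5 Twist1+/- libraries lay close together, and the lowest WT library was 5.98 times the highest Twist1+/- library. Means were 19.2 ± 8.11 in MUT and 15.9 ± 10.6 in REG, against 228 ± 71.5 in WT. The log2 difference was -3.58 ± 0.64 for MUT vs WT, -4.11 ± 0.64 for REG vs WT and -0.54 ± 0.64 for REG vs MUT. REG vs WT was -3.19 with REG replicate 3 alone and -4.58 with REG replicates 1 and 2 alone. Casc1 spans chr6:145174834-145211005 on the minus strand, with 9 transcripts of which 3 are coding and up to 17 exons, and the union of its exons is 12207 bases long. An exon of Casc1 overlaps an exon of Lrmp on the opposite strand, and whether reads were counted by strand is not given in the sources used here.

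Kcnj10 had deposited values of 5.76, 4.37 and 8.17 in MUT and 3.77, 1.16 and 9.78 in REG, against 85.2, 47.6 and 52.1 in WT. The lowest WT library was 4.87 times the highest Twist1+/- library, which was REG replicate 3, and REG replicate 2 was again the lowest. Means were 6.10 ± 1.92 in MUT and 4.90 ± 4.42 in REG, against 61.7 ± 20.5 in WT. The log2 difference was -3.25 ± 0.62 for MUT vs WT, -3.91 ± 0.62 for REG vs WT and -0.65 ± 0.62 for REG vs MUT. REG vs WT was -2.56 with REG replicate 3 alone and -4.58 with REG replicates 1 and 2 alone. Kcnj10 lies at chr1:172341210-172374085 on the plus strand, with 1 transcript of 2 exons and 5407 exonic bases.

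Dnajc5b rested on the fewest reads of the 4. It had deposited values of 1.13, 0.798 and 1.31 in MUT and 0.123, 0.0784 and 0.797 in REG, against 3.06, 2.41 and 3.39 in WT. These correspond to 68, 7 and 62 reads in MUT, 12, 6 and 32 in REG, and 107, 90 and 140 in WT. It was the one gene whose REG libraries all lay below its MUT libraries, but REG replicate 3 at 0.797 and MUT replicate 2 at 0.798 were almost equal. For the 7 reads of MUT replicate 2 the exact 95% Poisson interval is 2.81 to 14.4 reads, which covers counting error only. Means were 1.08 ± 0.261 in MUT and 0.333 ± 0.402 in REG, against 2.95 ± 0.498 in WT. The log2 difference was -1.20 ± 0.42 for MUT vs WT, -2.38 ± 0.42 for REG vs WT and -1.18 ± 0.42 for REG vs MUT. REG vs WT was -1.50 with REG replicate 3 alone and -2.82 with REG replicates 1 and 2 alone. Dnajc5b lies at chr3:19508595-19610862 on the plus strand, with 4 transcripts of up to 6 exons and 1259 exonic bases. Its values are uncertain for 2 further reasons, an exon shared in position with 1700064H15Rik on the other strand, and 14.8% of its 31-base stretches that also occur in Gm14868.

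**Figure D1:**
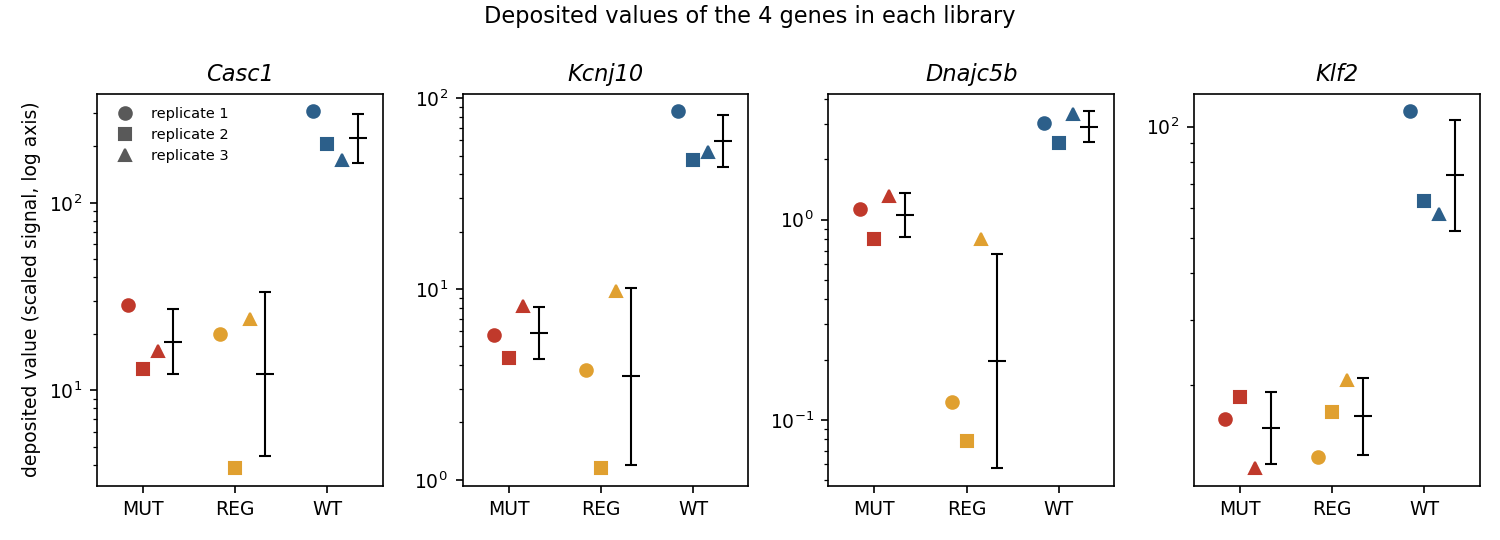
Deposited values (scaled signal, log axis) of Casc1, Kcnj10, Dnajc5b and Klf2 in the MUT, REG and WT libraries, 3 per group. Points are single libraries with a marker shape per replicate number, and the black dash and bar give the mean ± SD of the log2 values. All 6 Twist1+/- points lie below all 3 WT points in each panel, with the smallest gap, 1.83-fold, in Dnajc5b.

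These gaps were used to pick the genes. All 3 MUT libraries lay below all 3 WT libraries for the 4 genes, as for 25.9% of the genes tested, all 3 REG libraries lay below all 3 WT libraries for the 4, as for 12.1%, and all 6 did so for the 4, as for 4.32%. Among the 1258 genes of that last kind, the ratio of the lowest WT library to the highest Twist1+/- library stood at rank 2 for Casc1, 4 for Kcnj10, 22 for Klf2 and 87 for Dnajc5b, and its median was 1.16. When the 18242 genes with REG below WT were ordered by the p-value of that comparison, Casc1 stood at 5, Kcnj10 at 7, Dnajc5b at 9 and Klf2 at 10. The other 6 of the first 10 are long noncoding RNAs, and the 4 were thus the only protein-coding genes among the first 10. This order too was drawn from the REG and WT values that picked the genes, so it restates the choice. No gene was called in that comparison. The next 2 genes just outside were Vmn2r79, a vomeronasal receptor gene with means of 113 in MUT and 68.3 in REG, against 568 in WT, and AY074887, with means of 0.893 in MUT and 0.397 in REG, against 5.42 in WT.

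The scale changed the picture for MUT. Expressed as RPM, each gene's reads scaled to a common total of reads on genes, Casc1 had 159.6, 44.0 and 97.8 in MUT and 54.6, 11.3 and 53.6 in REG, against 667, 392.4 and 354 in WT. Kcnj10 had 32.3, 14.5 and 49.4 RPM in MUT and 10.2, 3.38 and 21.9 RPM in REG, against 185, 90.2 and 109 RPM in WT. Klf2 had 90.5, 62.5 and 72.0 RPM in MUT and 34.7, 49.6 and 46.2 RPM in REG, against 238, 119 and 121 RPM in WT. For these 3 genes all 6 Twist1+/- libraries remained below WT, and for Klf2 all 3 REG libraries now also lay below all 3 MUT libraries. Dnajc5b had 6.26, 2.38 and 7.83 RPM in MUT and 0.309, 0.198 and 1.73 RPM in REG, against 6.56, 4.51 and 7.02 RPM in WT. For Dnajc5b the MUT and WT libraries thus overlapped on this scale, MUT replicate 3 being the highest of all 9, so that being low in both Twist1+/- groups holds for 3 of the 4 genes in RPM, as for 1.44% of the genes tested.

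The reads of Dnajc5b in MUT and in REG replicates 1 and 2 were also close to background. Set against the background reads expected over its 1259 exonic bases, Dnajc5b had 2.64, 2.91 and 3.61 times the background in MUT and 3.90, 2.18 and 32.9 times in REG, against 71.9, 71.2 and 76.5 times in WT. Kcnj10 stood at 3.18, 4.15 and 5.30 times background in MUT and 30.1, 8.66 and 96.7 times in REG, against 471, 331 and 276 times in WT. Casc1 stood at 6.95, 5.56 and 4.65 times background in MUT and 70.9, 12.9 and 105 times in REG, against 753, 638 and 398 times in WT. Klf2 was the farthest of the 4 above background in MUT, at 26.0, 52.2 and 22.6 times, with 298, 372 and 598 times in REG, against 1778, 1281 and 899.8 times in WT. With this background subtracted and the rest scaled to total reads, the log2 difference of MUT vs WT was -2.37 for Casc1, -2.19 for Kcnj10, -0.44 for Dnajc5b and -0.81 for Klf2. Total-read scaling without subtraction gave -2.34, -2.05, -0.21 and -1.02 in the same order, so the subtraction itself moved each by less than 1 SE of either fit.

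**Figure D2:**
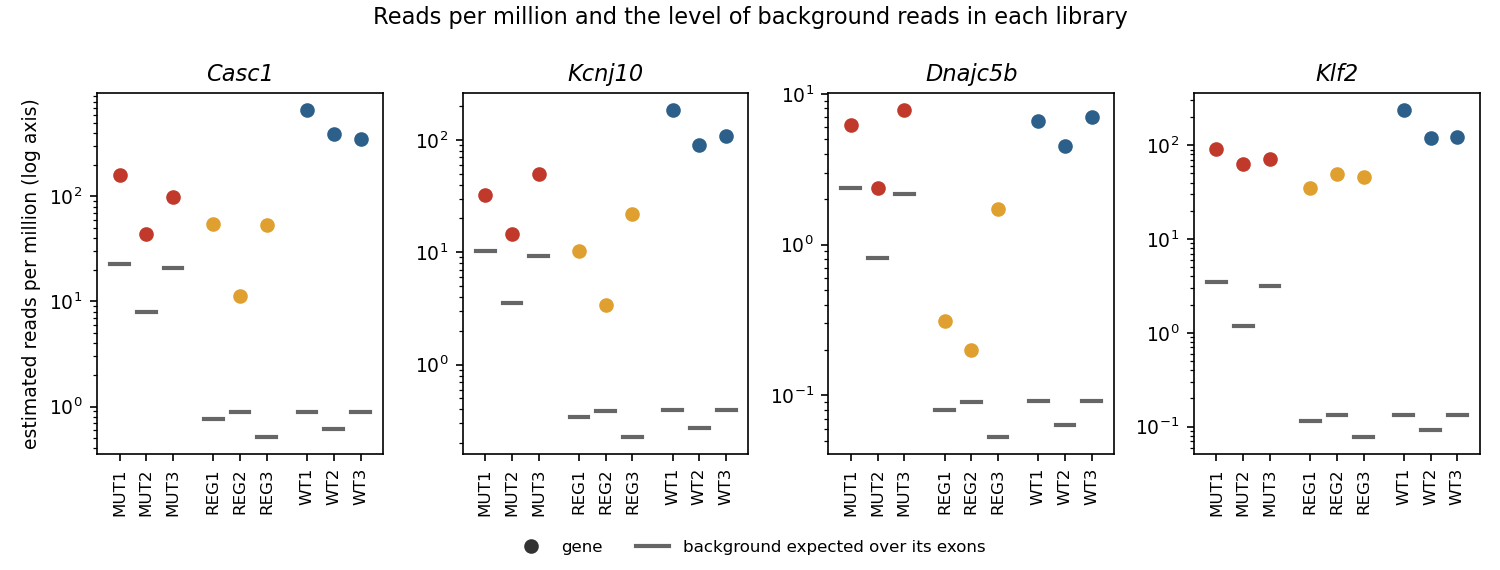
Estimated RPM (log axis) of each gene in each library (points, coloured by group) and the background expected over its exons from receptor genes (grey lines). The Dnajc5b points of MUT lie at 2.64 to 3.61 times their grey lines, whereas those of WT lie at 71.2 to 76.5 times.

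REG vs WT depended less on the scaling than MUT vs WT. Across the deposited, trimmed-mean, quantile, total-read and background-subtracted scalings, the log2 difference of REG vs WT stayed between -4.11 and -3.76 for Casc1, between -3.91 and -3.47 for Kcnj10, between -2.39 and -1.92 for Dnajc5b and between -2.14 and -1.79 for Klf2. For MUT vs WT it lay between -3.95 and -2.27 for Casc1, between -3.62 and -2.05 for Kcnj10, between -1.74 and -0.21 for Dnajc5b and between -2.61 and -0.81 for Klf2. All of these were below 0. Total-read, trimmed-mean and background-subtracted differences were taken on log2(RPM + 1), which shrinks those of genes at low RPM such as Dnajc5b. Its mean RPM in WT was 8.07 times that in REG, so its narrow range for REG vs WT rests partly on this addition. REG vs MUT changed sign with the scaling for Klf2, at 0.10 as deposited and 0.79 with trimmed means but -0.77 with total reads, -0.89 with quantiles and -0.98 with background subtracted. It changed sign for Casc1 as well, being 0.14 with trimmed means. The median of all genes for MUT vs WT was 1.11 with total reads and 0.18 as deposited. Relative to that median, MUT vs WT with total reads was -3.46 for Casc1, -3.16 for Kcnj10, -1.32 for Dnajc5b and -2.13 for Klf2, against -3.76, -3.43, -1.38 and -2.43 as deposited.

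**Figure D3:**
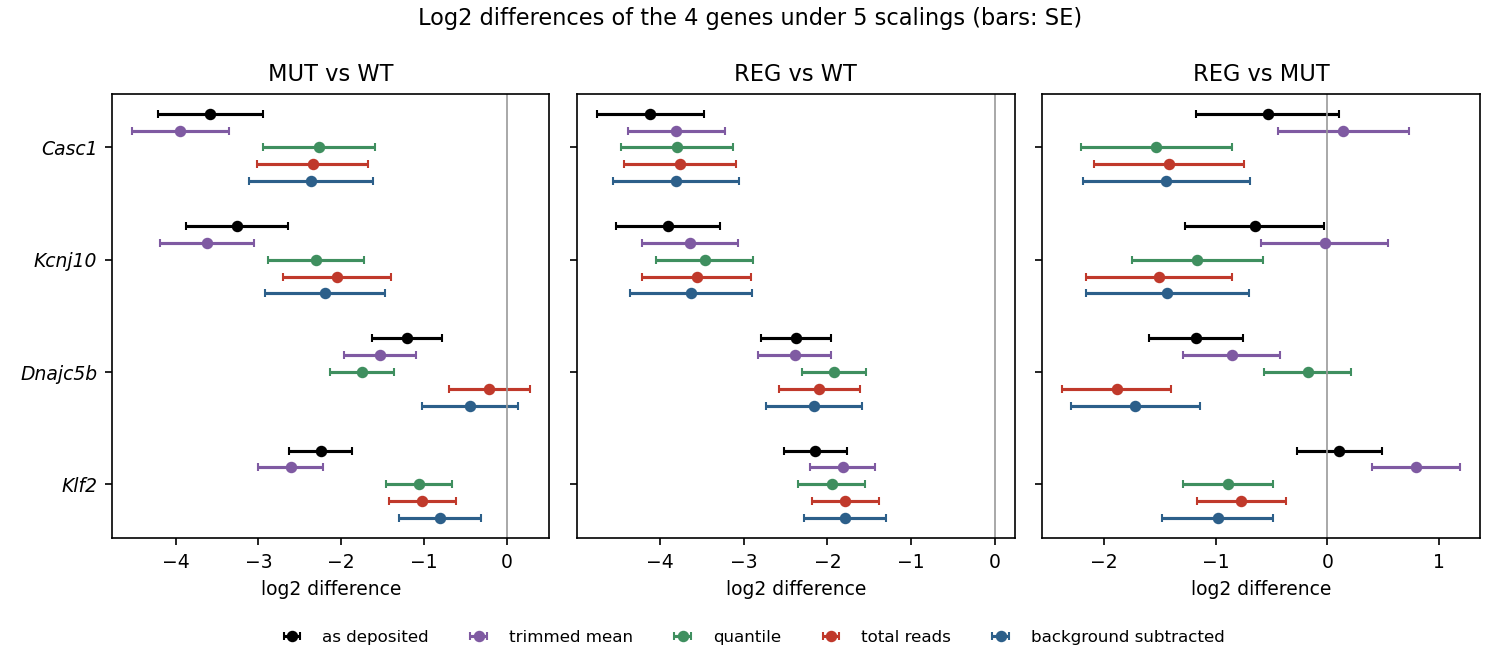
Log2 differences (x axis, points) with their standard errors (bars) of the 4 genes for MUT vs WT, REG vs WT and REG vs MUT under 5 scalings, one colour each. The points of REG vs WT stay together, those of MUT vs WT spread towards 0 under total reads and background subtraction, where Dnajc5b reaches -0.21 and -0.44, and those of REG vs MUT fall on both sides of 0 for Klf2.

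Levels were compared between genes per kilobase of exon, as RPM per kilobase. In WT, Klf2 was the highest at 64.5 to 129, followed by Casc1 at 29.0 to 54.6, Kcnj10 at 16.7 to 34.1 and Dnajc5b at 3.58 to 5.58, and the ranges of Casc1 and Kcnj10 overlapped. In MUT, Klf2 had 33.8 to 49.0, Casc1 3.601 to 13.1, Kcnj10 2.69 to 9.14 and Dnajc5b 1.89 to 6.22, so that only Klf2 stood apart. In REG, Klf2 had 18.8 to 26.9, Casc1 0.929 to 4.47, Kcnj10 0.625 to 4.05 and Dnajc5b 0.157 to 1.38.

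The 4 genes followed each other over the 9 libraries, which were used to pick them. Pearson's r of log2(value + 0.367) was 0.98 for Casc1 with Kcnj10 and 0.78 for Dnajc5b with Klf2, the highest and lowest of the 6 pairs. Among 14729 named genes with a mean value of at least 1, the pattern most like Casc1 was that of Tmem54 (r = 0.98), followed by Prdm13, Kcnj10, Map7 and Rtp2. Fam43a was most like Kcnj10 (r = 0.99), followed by Map7, Prdm13, Casc1 and Bbc3, so that Map7 and Prdm13 appeared beside both. Map7, which encodes a microtubule-associated protein, had means of 14.8 in MUT and 14.7 in REG, against 77.5 in WT. Prdm13, which encodes a transcription factor of neural development, had means of 2.96 in MUT and 3.59 in REG, against 20.5 in WT. The pattern most like Dnajc5b was that of Tmem200c (r = 0.96), followed by Duox1, Asphd2, Opn4 and Fjx1. That most like Klf2 was Ajm1 (r = 0.95), with means of 8.78 in MUT and 9.50 in REG, against 40.8 in WT, followed by Zic5, Nectin1, Dmxl1 and Adgrb2. These correlations rest on 9 libraries in 3 groups that share their depth and background, and they describe likeness only.

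Genes upstream of Klf2 were mostly lower in MUT. Of the 6 kinase and MEF2 genes that raise Klf2 in endothelium, 4 fell in MUT vs WT and none rose (median log2 difference -1.50, against 0.18 over all genes), and 4 rose in REG vs MUT (median 1.21, against -0.36). Among the 11449 genes left by a filter 10 times stricter, the medians were -0.99 and 0.73. Of these, 3985 fell in MUT vs WT and 2780 rose in REG vs MUT, so the median gene of higher value moved the same way. Map3k3, the first kinase of the cascade, had means of 5.48 ± 0.352 in MUT, 16.3 ± 7.16 in REG and 16.6 ± 1.22 in WT (MUT vs WT -1.54 ± 0.40, limma adjusted p = 0.0166). Mef2d, one of the factors at its end, had means of 4.24 ± 2.43 in MUT, 15.3 ± 10.6 in REG and 24.3 ± 3.16 in WT (MUT vs WT -2.60 ± 0.58, limma adjusted p = 0.00914). Map2k5 and Mapk7, the kinases between them, were the other 2 called. Their log2 differences for REG vs WT were -0.11 for Map2k5 and -0.0018 for Mapk7, and none of the 6 was called in that comparison. With 1 library left out, 1 to 5 of the 6 fell in MUT vs WT and 0 to 5 rose in REG vs MUT. Of the 4 falls only that of Mef2d was called with each library left out in turn, all 4 rises were lost without MUT replicate 1 or 3, and with total-read scaling or background subtraction none of the 6 was called, Mapk7 changing sign with total reads.

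Of 7 genes that KLF2 is known to raise, 1 fell in MUT vs WT, a share near the 14.6% of all genes tested. It was S1pr1, the sphingosine 1-phosphate receptor that lets T cells leave lymphoid organs, with values of 3.85, 9.06 and 1.503 in MUT and 13.5, 6.15 and 17.0 in REG, against 15.9, 35.4 and 41.1 in WT (-2.78 ± 0.64, limma adjusted p = 0.0102). The MUT libraries lay below the WT libraries and the REG libraries overlapped both, and none of the 7 was called in REG vs MUT or REG vs WT. The call of S1pr1 held with each library left out in turn and in 3 of the 4 other scalings, and was lost with background subtracted (-1.92, limma adjusted p = 0.0833). The median log2 difference of REG vs WT was -1.08 over the 7 genes and -0.27 over 4 genes that KLF2 is known to lower, none of which was called in that comparison, against -0.18 over all genes.

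Among the other 16 members of the KLF family, 3 fell and 2 rose in MUT vs WT, against 14.6% and 20.5% of all genes tested. In REG vs MUT 3 rose and 4 fell, against 11.8% and 24.8%. With 1 library left out, 2 to 3 fell and 0 to 2 rose in MUT vs WT, and 1 to 3 rose and 1 to 4 fell in REG vs MUT. Klf9, a glucocorticoid-induced member, had values of 4.14, 2.83 and 2.11 in MUT and 26.5, 48.1 and 32.8 in REG, against 37.7, 59.0 and 32.96 in WT. It was low in MUT alone, with REG and WT overlapping, and its log2 difference was -3.68 ± 0.40 for MUT vs WT (limma adjusted p = 0.000871), 3.41 ± 0.40 for REG vs MUT (limma adjusted p = 0.00109) and -0.27 ± 0.40 for REG vs WT (limma adjusted p = 0.829). Klf13 fell in MUT vs WT (-2.13 ± 0.40, limma adjusted p = 0.0047) and rose in REG vs MUT (1.55 ± 0.40, limma adjusted p = 0.0151). Its call in MUT vs WT held with each library left out in turn but in only 1 of the 4 other scalings, whereas that in REG vs MUT was lost without MUT replicate 1 or 3. Klf17, which had no read in WT replicate 3, rose in MUT vs WT to a mean of 1.23, against 0.111 in WT, and this call was lost without any 1 of the MUT libraries. Klf7 was the 1 family member besides Klf2 whose 6 Twist1+/- libraries all lay below WT, with means of 8.20 ± 1.62 in MUT and 6.94 ± 5.21 in REG, against 13.8 ± 0.405 in WT (limma adjusted p = 0.407 for MUT vs WT and 0.533 for REG vs WT). It was named after its values were seen.

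Markers of the cells that express Klf2 differed between MUT and WT in the same comparison. Of 10 endothelial markers, 3 fell in MUT vs WT, namely Eng, Pecam1 and Cdh5, and 4 rose in REG vs MUT, with none called in REG vs WT. Of all genes tested, 14.6% fell in MUT vs WT and 11.8% rose in REG vs MUT. With the filter 10 times stricter, 3985 of 11449 genes fell in MUT vs WT and 2780 rose in REG vs MUT. Eng, a TGF-beta co-receptor, had means of 3.99 ± 2.37 in MUT, 23.0 ± 10.5 in REG and 29.7 ± 7.09 in WT. The fall of Eng was called with each library left out in turn, that of Pecam1 was lost without MUT replicate 3, and that of Cdh5 was lost without any 1 of the WT libraries or MUT replicate 1 or 3. The number that fell was 1 to 5 with 1 library left out, and none of the 10 was called in MUT vs WT with total reads or background subtracted. The number that rose in REG vs MUT was also 1 to 5 with 1 library left out. Of the 4 rises, that of Eng held with each library left out, and the others were lost without MUT replicate 3. Each rise was called in only 1 of the 4 other scalings, that of trimmed means. The summed level of the 10 markers was 45.2 to 64.3 in MUT and 110.0 to 195 in REG, against 126 to 160 in WT, and none of the 10 was at 0 in any library. Of 10 T cell markers, 1 rose in MUT vs WT (Cd3g, 2.78 ± 0.48, limma adjusted p = 0.00338), against 20.5% of all genes tested. The summed level of the T cell markers was 29.7 to 49.0 in MUT and 17.4 to 29.7 in REG, against 17.1 to 22.0 in WT, with Cd3d at 0 in MUT replicate 2. Bulk samples cannot tell fewer cells of a type from less RNA per cell, and the part of either cell type in the values of Klf2 was not tested.

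Among the other inward rectifier genes, some were higher in MUT. Of 14 Kcnj genes, 5 rose and none fell in MUT vs WT (median 1.21), against 20.5% and 14.6% of all genes tested. In REG vs MUT 8 fell and none rose (median -1.52), against 24.8% and 11.8%, and none was called in REG vs WT (median -0.28). In 1 of the 14, all 6 Twist1+/- libraries lay below WT, as for 4.32% of all genes tested. Kcnj16, whose product forms channels together with that of Kcnj10, had values of 3.98, 5.20 and 6.16 in MUT and 0.322, 0.206 and 0.198 in REG, against 0.460, 0.211 and 0.193 in WT. The MUT libraries were apart from all others, and the log2 difference was 3.07 ± 0.33 for MUT vs WT (limma adjusted p = 0.000881). Kcnj2 rose likewise, with means of 25.04 ± 15.6 in MUT and 2.43 ± 1.11 in REG, against 3.05 ± 0.408 in WT (2.72 ± 0.49, limma adjusted p = 0.00382). Both calls held under each of 4 other scalings and with each library left out in turn, while the calls of Kcnj6 and Kcnj1 were lost without single libraries of either group. The number that rose was 2 to 7 with 1 library left out and 3 of 13 with background subtracted. The number that fell in REG vs MUT was 2 without MUT replicate 1 or 3 and up to 8 with another library left out, and 2 of the 8 falls were called in all 4 other scalings.

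Glial markers were mixed. Of 12, 2 rose in MUT vs WT, namely Aqp4 and Slc1a2, and 2 fell, among them Glul, against 20.5% and 14.6% of all genes tested. None was called in REG vs WT, a comparison that called no gene at all. The median log2 difference of REG vs WT was -0.94 over the 12 markers, against -0.18 over all genes. Without REG replicate 3, 2 of the 12 were called lower in REG vs WT, as were 1203 of 28808 genes tested. Aqp4, the water channel that lies beside Kir4.1 in astrocyte endfeet, had values of 1.79, 2.68 and 4.04 in MUT and 1.39, 0.684 and 0.171 in REG, against 0.255, 0.242 and 0.276 in WT (MUT vs WT 2.30 ± 0.46, limma adjusted p = 0.00616). Glul, glutamine synthetase, had 6.47, 6.38 and 3.94 in MUT and 17.4, 4.86 and 48.5 in REG, against 49.5, 77.0 and 44.8 in WT (MUT vs WT -3.26 ± 0.69, limma adjusted p = 0.00724). Both calls held with each library left out in turn, that of Slc1a2 was lost without any 1 of the WT libraries or MUT replicate 1 or 3, and none of the 11 markers still tested was called with background subtracted. In Glul, as in Kcnj10, REG replicate 2 was the lowest REG library and REG replicate 3 the highest. The summed level of the 12 was 31.3 to 42.9 in MUT and 18.7 to 74.2 in REG, against 74.7 to 111 in WT, with Fabp7 at 0 in MUT replicate 2 and in WT replicate 1. Much of this sum in WT was Glul alone, at 49.5, 77.0 and 44.8. The part of glial cells in the values of Kcnj10 was not tested.

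Of 8 paralogues and partners of Dnajc5b, 3 fell and 2 rose in MUT vs WT, against 14.6% and 20.5% of all genes tested. In REG vs MUT 2 rose and 2 fell, against 11.8% and 24.8%. With 1 library left out, 0 to 3 fell and 0 to 3 rose in MUT vs WT. Dnajc5, the paralogue found on synaptic vesicles, had means of 4.99 ± 1.85 in MUT, 15.2 ± 7.76 in REG and 17.0 ± 1.80 in WT, and Hspa8, the chaperone that both co-chaperones serve, had means of 46.9 ± 30.6 in MUT, 134 ± 27.5 in REG and 141 ± 25.1 in WT. Both fell in MUT vs WT (-1.76 ± 0.49 and -1.80 ± 0.50, limma adjusted p = 0.0207 and 0.0208) and differed from WT by -0.31 and -0.08 in REG. The calls of Dnajc5 and Hspa8 were lost without any 1 of the WT libraries and without MUT replicate 1, that of Dnajc5 also without MUT replicate 2 and that of Hspa8 without MUT replicate 3. Vamp2, a synaptic vesicle fusion protein, had all 6 Twist1+/- libraries below WT, with means of 6.57 ± 1.05 in MUT and 10.001 ± 3.10 in REG, against 16.9 ± 2.44 in WT, and its fall in MUT vs WT (-1.32 ± 0.35, limma adjusted p = 0.0184) was lost without any 1 of the MUT libraries. Of the 7 still tested with background subtracted none was called in any comparison.

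Genes of the axoneme were compared with Casc1. Of 27 axonemal genes 25 were tested, of which 9 rose and none fell in MUT vs WT (median 1.19), against 20.5% and 14.6% of all genes tested. In REG vs MUT 14 fell and none rose (median -1.39), against 24.8% and 11.8%, and none was called in REG vs WT (median -0.33). Rsph4a, a radial spoke head gene, had values of 3.23, 5.02 and 3.06 in MUT and 0.385, 0.285 and 0.261 in REG, against 0.203, 0.273 and 0.315 in WT (MUT vs WT 2.69 ± 0.32, limma adjusted p = 0.00115). This call held with each library left out in turn, while that of Dnah7a, an axonemal dynein heavy chain gene, was lost without MUT replicate 3. The number that rose was 2 to 12 with 1 library left out, 4 of 23 with background subtracted and 0 with MUT replicate 2 as the only MUT library. The number that fell in REG vs MUT was 5 without MUT replicate 1 or 3 and up to 13 with another library left out, and 2 of the 14 falls were called in all 4 other scalings. Foxj1, the master regulator of motile cilia, had means of 2.21 ± 0.568 in MUT and 0.556 ± 0.807 in REG, against 1.38 ± 0.167 in WT, and was called in REG vs MUT (-1.80 ± 0.53, limma adjusted p = 0.0248), a call lost without any 1 of the MUT libraries or REG replicate 1 or 2. It was named after its values were seen.

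**Figure D4:**
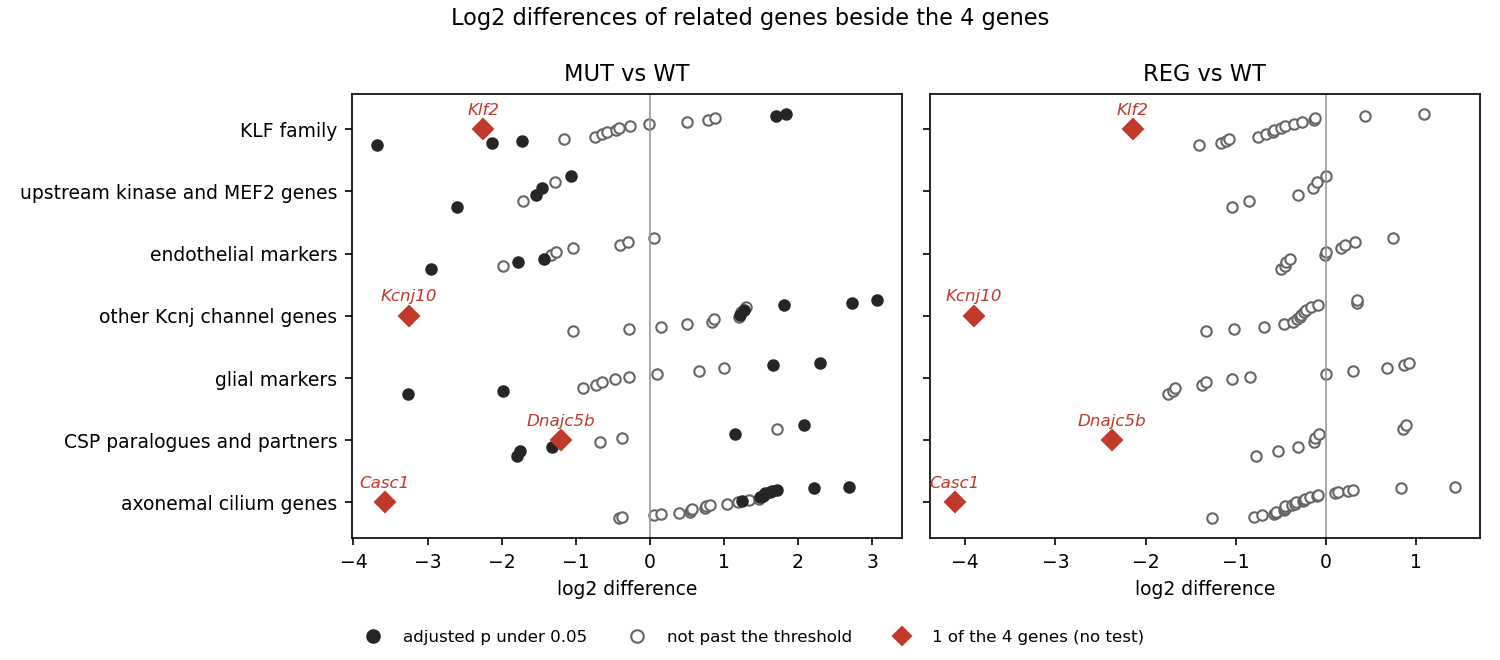
Log2 differences (x axis) of the related genes, one point per gene and one line of points per list, for MUT vs WT and REG vs WT, which share the WT libraries. Filled points passed an adjusted p under 0.05 and open points did not, and red diamonds give the 4 genes, which were not tested. The diamonds of Klf2, Kcnj10, Dnajc5b and Casc1 for REG vs WT, from -4.11 to -2.14, lie left of every point of their lists. Their low REG values were used to pick them, so this position follows from the choice.

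Markers of the labelled tissue were often lower in MUT. Of 13 osteoblast and osteocyte markers 9 fell in MUT vs WT and 7 rose in REG vs MUT, and of 10 suture mesenchyme markers 6 fell in MUT vs WT, while 3 rose and 2 fell in REG vs MUT. Postn, a matrix gene of periosteum and suture, had means of 7.44 ± 1.26 in MUT, 498 ± 153 in REG and 479 ± 209.8 in WT (MUT vs WT -5.85 ± 0.43, limma adjusted p = 0.000132). Prrx1, a mesenchymal transcription factor gene, had means of 10.97 ± 2.86 in MUT, 47.0 ± 8.20 in REG and 72.9 ± 20.8 in WT (MUT vs WT -2.68 ± 0.37, limma adjusted p = 0.00161). Of 14 osteoclast markers 4 fell and 1 rose in MUT vs WT and 8 rose and 1 fell in REG vs MUT, and of 14 bone marrow markers 1 rose in each of these comparisons. Of all genes tested, 14.6% fell and 20.5% rose in MUT vs WT, and 11.8% rose and 24.8% fell in REG vs MUT. With the filter 10 times stricter, 3985 of 11449 genes fell in MUT vs WT and 2780 rose in REG vs MUT. With 1 library left out the number that fell in MUT vs WT was 5 to 9 for the osteoblast and osteocyte markers, 3 to 8 for the suture mesenchyme markers and 2 to 6 for the osteoclast markers, the fewest being without WT replicate 2 or 3 or MUT replicate 1 in each list, and also without MUT replicate 3 in the osteoblast and osteoclast lists. The number that rose in REG vs MUT was 6 to 9, 2 to 6 and 5 to 9 in the same lists. Of the MUT vs WT calls, 4 of 9, 2 of 6 and 0 of 5 were made in all 4 other scalings. Those of Postn and Prrx1 held in each of these scalings and with each library left out. None of these markers was called in REG vs WT, a comparison that called no gene at all. All 6 Twist1+/- libraries lay below WT for 2 of 13 osteoblast and osteocyte markers and 2 of 10 suture mesenchyme markers. That held for no osteoclast or bone marrow marker and for 4.32% of all genes tested. The summed level of the suture mesenchyme markers was 40.9 to 88.6 in MUT and 497 to 768 in REG, against 407 to 920 in WT. Much of this sum in REG and WT was Postn alone, with means of 498 and 479. The part of these cell types in the values of the 4 genes was not tested.

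The genes beside the 4 on their chromosomes were mostly not called. Of 24 neighbouring tested genes, 6 for each gene, 3 were called in MUT vs WT, against 10225 of all 29107 genes tested. None was called in REG vs WT, a comparison that called no gene at all. Lrmp, whose exon overlaps that of Casc1, had means of 5.99 ± 0.418 in MUT and 7.89 ± 9.18 in REG, against 5.65 ± 1.39 in WT, and Etfrf1, whose start is separated from that of Casc1 by 128 bases, had means of 1.46 ± 0.675 in MUT and 2.48 ± 1.18 in REG, against 1.84 ± 0.767 in WT. Kcnj9, the neighbour of Kcnj10 in the same family, had means of 2.12 ± 1.14 in MUT and 1.09 ± 0.990 in REG, against 0.633 ± 0.107 in WT. Beside Klf2, Ap1m1 and Eps15l1 fell in MUT vs WT (-1.89 ± 0.40 and -1.15 ± 0.34, limma adjusted p = 0.00756 and 0.0264). Ap1m1, a subunit gene of the clathrin adaptor AP-1, rose in REG vs MUT (2.49 ± 0.40, limma adjusted p = 0.00265) to a mean of 18.2 ± 3.02, against 11.7 ± 0.235 in WT, so that it did not stay low as Klf2 did. The call of Ap1m1 in MUT vs WT was lost without MUT replicate 3, and that of Eps15l1 was lost without any 1 of the MUT or WT libraries and changed sign with total reads. The third was Gm43910, a predicted gene that lies within the span of Lrmp on the other strand, with means of 221 ± 122 in MUT and 0.612 ± 0.275 in REG, against 1.27 ± 0.994 in WT.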

How the data were processed

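RNA-seq of 9 coronal suture libraries was analysed, 3 each of MUT, REG and WT, grouped by the labels' genotype and treatment. The authors deposited a scaled signal per gene, neither counts nor log values; per the submitters' processing notes STAR 2.6.1d, Partek and mm10 were used, while how reads were counted, annotated and normalized is not given in the sources used here. Library columns carried no gene names and were matched to the table of gene IDs by 4 deposited statistics, for 43644 of 43644 genes (relative tolerance 1e-06), of which 43484 had statistics that were unique. Read numbers were estimated by taking the lowest value of a library as 0 reads and as the size of 1 read, so that reads are the value divided by it, minus 1. Of the low estimates 41.1% came out whole within 0.01 reads, so no count test was run.

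Genes at or above 0.367 in at least 3 libraries were tested. Log2(value + 0.367) was fitted with limma 3.58.1 (R 4.3.3) on 1 factor over all 9 libraries, without a trend, and p-values were adjusted over all genes tested. Trimmed-mean scaling factors were computed from the estimated reads. Total-read, trimmed-mean and background-subtracted values were fitted as log2(RPM + 1), for genes at or above 1 RPM in at least 3 libraries. The remaining steps used Python 3.11.15, numpy 2.4.6, pandas 2.3.3, scipy 1.17.1 and matplotlib 3.10.9, and the fit was tested on simulated data. The 4 genes and all 14 gene lists were chosen with earlier results of these data known. Up to 4 called genes per list were named, by the smallest p in MUT vs WT and then REG vs WT. Some called genes of these lists are not reported here. Gene positions and exons are those of GENCODE M21 on GRCm38, and intervals cover counting error only. Other scalings, pseudocounts, filters, library weights, a replicate block and each library left out were tried as alternatives.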

Additional observations from a re-analysis of the deposited data

How the results depend on the processing

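The log2 differences of MUT vs WT and REG vs WT were below 0 for Casc1, Kcnj10 and Klf2 under all 24 alternative settings. For Dnajc5b this held under 23, the filter 10 times stricter leaving it without a value, though its MUT and WT libraries overlapped in RPM. The genes were picked for lying below WT, so this direction was part of the choice. Removing the filter, a trend, fitting only the groups compared and the replicate block leave these estimates unchanged. Leaving out REG replicate 3 is the same fit as keeping REG replicates 1 and 2 alone. MUT vs WT was less negative for Casc1 with total reads (-2.34), quantiles (-2.27) and background subtraction (-2.37), for Kcnj10 likewise (-2.05, -2.30 and -2.19), and for Klf2 likewise (-1.02, -1.06 and -0.81). For Dnajc5b it was -0.21, -1.74 and -0.44 under these scalings and -0.48 with a pseudocount 10 times higher. REG vs MUT was -1.53 for Casc1 with quantiles and -1.44 with background subtraction. For Dnajc5b it was -1.89, -0.18 and -1.72 under the 3 scalings, -2.14 with a pseudocount 10 times lower and -0.25 with one 10 times higher. For Klf2 it was 0.79 with trimmed means, and it reversed to -0.77, -0.89 and -0.98 under the 3 scalings. With REG replicate 3 as the only REG library, REG vs MUT reversed to 0.39 for Casc1 and 0.69 for Kcnj10 and was -0.30 for Dnajc5b, while REG vs WT was -3.19, -2.56 and -1.50 for these genes. REG vs WT was -3.01 for Kcnj10 and -0.73 for Dnajc5b with the higher pseudocount, and -3.57 for Dnajc5b with the lower one. Background subtraction also scales to total reads. The causes were not tested.

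With 1 library left out in turn, MUT vs WT ran from -3.90 to -3.34 for Casc1, -3.48 to -2.998 for Kcnj10, -1.32 to -1.05 for Dnajc5b and -2.42 to -1.96 for Klf2. REG vs WT ran from -4.58 to -3.32, -4.58 to -3.21, -2.82 to -2.12 and -2.32 to -1.86 in the same order, and REG vs MUT from -0.998 to 0.26, -1.32 to 0.04, -1.61 to -0.92 and -0.07 to 0.28.

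Genes called in MUT vs WT numbered 5181 with quantiles, 4077 with background subtraction, 4895 with the stricter filter, 17589 with array weights, 1777 with MUT replicate 2 as the only MUT library, and 3756 (without MUT replicate 3) to 12716 (without REG replicate 2) with 1 library left out. The split into higher and lower, 5964 and 4261 as deposited, was 11734 and 876 with total reads, 3449 and 5555 with trimmed means, 3223 and 854 with background subtraction and 910 and 3985 with the stricter filter. REG vs MUT called 4200, 3763 and 3652 genes with quantiles, background subtraction and the stricter filter, 5689 with MUT and REG alone, 1494 with MUT replicate 2 alone, and 3646 to 11674 with 1 library left out. REG vs WT called 0 to 1616, the 1616 being with REG replicates 1 and 2 as the only REG libraries.

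With the replicate number as a block, 8766 genes were called in MUT vs WT, 9373 in REG vs MUT and 0 in REG vs WT. The deviations of same-numbered libraries from their group means had correlations of -0.05, -0.04 and -0.04 for MUT with WT. They were 0.10, -0.20 and -0.15 for REG with WT, and -0.07, 0.045 and 0.055 for REG with MUT. The highest correlation, 0.38, was between libraries of different number, REG replicate 3 and WT replicate 2. The numbers were therefore not taken to pair the samples.

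The low depth and high background of MUT limit Dnajc5b most, and 3 libraries per group limit every estimate. For Dnajc5b, REG replicates 1 and 2 rest on only 12 and 6 reads, also close to background.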
